A study of Homo sapiens with 18 samples.

Results

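The potassium channel genes described here were the genes of the expression table whose symbol begins with KCN, then a letter from A to V and a digit, with hyphenated symbols left out. They numbered 84 of the 19744 genes in the table, and 31 of the 84 had a mean of at least 1 TPM (a share of all transcripts, set per transcript length and scaled to the same total in each library) over the 18 libraries. Changes were tested on those 31, within a fit over all 13066 genes at or above that mean, and the other 53 were counted but too low for the test. The cells belonged to the small cell lung cancer line NCI-H211 and carried Cas9 with 1 of 3 stable insertions: a cDNA of POU2F3 with the L191A substitution, the WT cDNA, or an empty vector, both cDNAs being resistant to the guide. Each of the 3 lines received a lentiviral guide against endogenous POU2F3 (sgPOU2F3) or the negative control guide sgRosa, in triplicate and with nearly all cells positive for the mCherry reporter, and polyA RNA was taken 5 days later. This gave 6 groups of 3 libraries: L191A sgPOU2F3, L191A sgRosa, WT sgPOU2F3, WT sgRosa, empty vector sgPOU2F3 and empty vector sgRosa. The replicates are separate infections of 1 stable line each, so the p-values measure the spread between infections and differences between lines cannot be told apart from differences between 3 single derivations. Cas9 was present in all 6 groups, sgRosa controls included.

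Potassium channels let K+ leave the cell along its gradient, which holds the resting membrane potential negative and ends electrical signals. Voltage-gated members open on depolarisation, inward rectifiers and tandem-pore leak channels set the resting potential, calcium- and sodium-activated members couple K+ flow to those ions, and KCNE proteins are small beta subunits that change the gating of a pore. Tuft cells, the chemosensory epithelial cells whose identity factor is POU2F3, depolarise through the cation channel TRPM5, and K+ channels act against such a depolarisation.

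The promoters of 3 members are shown as examples of members called with the guide in the empty vector line over 16 libraries (without the 2 that stood apart), chosen after their values were seen from those with an entry in the RefSeq promoter table (assembly GRCh38.p14). KCNH8 and KCNJ3 were lower with sgPOU2F3 and KCNK5 was higher, and KCNJ3 and KCNK5 were not called over all 18 libraries. Each sequence spans 300 bases around the annotated start, on the gene's own strand, with CG dinucleotides in capitals. The KCNH8 promoter is at chr3:19148260-19148559 on the + strand, with 77.7% G or C and 33 CG dinucleotides. That of KCNJ3 is at chr2:154698445-154698744 on the + strand, with 61.7% and 15. That of KCNK5 is at chr6:39229426-39229725 on the - strand, with 76.0% and 39.
KCNH8: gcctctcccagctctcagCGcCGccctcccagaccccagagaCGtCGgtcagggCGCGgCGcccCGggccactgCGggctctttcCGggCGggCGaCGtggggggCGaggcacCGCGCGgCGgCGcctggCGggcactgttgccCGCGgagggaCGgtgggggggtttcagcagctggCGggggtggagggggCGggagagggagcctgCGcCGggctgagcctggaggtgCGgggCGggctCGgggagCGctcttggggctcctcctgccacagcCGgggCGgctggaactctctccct
KCNJ3: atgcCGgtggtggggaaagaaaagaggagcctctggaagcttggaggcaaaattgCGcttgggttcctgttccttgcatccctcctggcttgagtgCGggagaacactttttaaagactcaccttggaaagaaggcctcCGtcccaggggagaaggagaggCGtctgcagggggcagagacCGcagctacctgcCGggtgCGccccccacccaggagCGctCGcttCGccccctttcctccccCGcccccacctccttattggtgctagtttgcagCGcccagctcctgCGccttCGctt
KCNK5: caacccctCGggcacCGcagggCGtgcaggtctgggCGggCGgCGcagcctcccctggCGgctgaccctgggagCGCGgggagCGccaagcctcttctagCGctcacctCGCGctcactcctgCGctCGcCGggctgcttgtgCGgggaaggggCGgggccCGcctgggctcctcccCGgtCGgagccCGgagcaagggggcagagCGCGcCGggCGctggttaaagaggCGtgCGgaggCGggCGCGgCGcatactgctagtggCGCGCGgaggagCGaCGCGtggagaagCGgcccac
None of the 3 holds the octamer ATGCAAAT, the letters bound by POU-domain factors, on either strand. The table held 28 promoter entries for 22 of the 31 tested members and none for the other 9. The octamer was found in 0 of the 28, against 1.421% of the 14916 promoters of all tested genes and 1.774% of the 35116 promoters in the table. Its first 7 letters, which every full octamer contains, were found in 1, that of KCNT2, against 3.252% of the promoters of all tested genes. The letters TATAAA were in 3 of the 28, against 6.389% of the promoters of all tested genes and 11.53% of all promoters. The median G or C content was 65.7% in the tested members' promoters and 58.7% in all promoters, and the median count of CG dinucleotides was 21.5 and 14. For these measures the promoters of all tested genes were not taken as a baseline. A missing match says only that these letters are not in these windows.

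Each deposited library summed to the same total, so sequencing depth is unknown and no counting error can be given. One library of L191A sgRosa (replicate 1) and one of WT sgPOU2F3 (replicate 1) stood apart. The 100 highest genes held 47.7% and 43.5% of their TPM, against 25.3% to 35.7% in the other 16 libraries, and their median tested gene stood at 7.05 and 12.7 TPM, against 18.6 to 26.4 TPM. Counts of members called in a comparison are therefore given over all 18 libraries and over the 16 without these, and a single gene's change over the libraries named beside it. Counts with a single library left out are given without the share of all genes, and describe the fit rather than the members. All 8 tuft cell markers were detected, with a summed level of 3191 to 3223 TPM in WT sgRosa and 2216 to 2823 TPM in empty vector sgRosa, so the tuft-like label held. The sum was 847 to 895 TPM in L191A sgPOU2F3, 404 to 1599 TPM in L191A sgRosa, 1740 to 2088 TPM in WT sgPOU2F3 and 746 to 959 TPM in empty vector sgPOU2F3. POU2F3 itself averaged 646 and 675 TPM in L191A sgPOU2F3 and L191A sgRosa, 1154 and 1792 TPM in WT sgPOU2F3 and WT sgRosa, and 281 and 729 TPM in empty vector sgPOU2F3 and empty vector sgRosa. Reads of the cDNA and of the endogenous gene cannot be told apart in this table, and the tuft sums include POU2F3. Every other tuft marker was lower in L191A sgPOU2F3 than in empty vector sgPOU2F3, such as AVIL at 149 and 288 TPM. All but TRPM5 (399 and 273 TPM) and POU2F3 were lower in WT sgRosa than in empty vector sgRosa, such as AVIL at 687 and 879 TPM. In bulk RNA, fewer cells of a type and less RNA per cell cannot be told apart.

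The tested members comprised 16 of 40 voltage-gated genes, 4 of 16 inward rectifiers, 6 of 15 tandem-pore leak channels, 3 of 7 calcium- or sodium-activated channels and 2 of 6 KCNE beta subunits. Of the 53 others, 5 were at 0 in every library and 18 were under 0.1 TPM in every library. The members nearest the filter were KCNK17 and KCNK12 inside it, with means of 1.05 and 1.08 TPM, and KCNJ2 and KCNH5 outside it, with 0.934 and 0.900 TPM. In 24 of the 31 every group averaged at least 1 TPM, and 11 averaged at least 10 TPM over all libraries.

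The highest voltage-gated member was KCNB2, a delayed rectifier pore, whose group means ran from 14.8 to 117 TPM. Its possible partners are the modifier subunits KCNS3, KCNG3 and KCNV1, which form no channel alone and join KCNB pores, and their group means ran from 9.36 to 23.3, 1.21 to 5.01 and 3.48 to 13.1 TPM. Among the KCNQ channels, KCNQ1 ran from 7.49 to 22.2 TPM, KCNQ3 from 4.49 to 28.4 TPM and KCNQ5 from 6.09 to 11.6 TPM, where KCNQ3 and KCNQ5 carry M-type currents and KCNQ1 pairs with KCNE subunits. All 3 KCNH branches were present. The ERG-type genes KCNH2 and KCNH7 ran from 13.8 to 36.4 and 1.80 to 33.2 TPM, the EAG-type KCNH1 from 6.73 to 32.1 TPM, and the ELK-type KCNH3 and KCNH8 from 2.12 to 45.0 and 1.92 to 9.56 TPM. KCNC4, a fast-gating pore, ran from 4.28 to 11.7 TPM, and the A-type pores KCND1 and KCND2 from 0.822 to 4.37 and 1.51 to 6.79 TPM.

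The leading inward rectifier was KCNJ11, the pore of the ATP-sensitive channel, at 14.2 to 69.0 TPM over the groups. KCNJ3, a G-protein-gated pore, ran from 11.3 to 33.0 TPM, KCNJ14 from 2.04 to 5.36 TPM and KCNJ8, the other ATP-sensitive pore, from 0.648 to 1.76 TPM. In the tandem-pore leak class, set by symbol, KCNK5 (4.81 to 13.4 TPM) and KCNK2 (5.49 to 8.68 TPM) were above KCNK6 (1.14 to 4.48 TPM), KCNK7 (0.778 to 4.27 TPM), KCNK17 (0.674 to 1.60 TPM) and KCNK12 (0.679 to 1.50 TPM) in the highest group mean. The sodium-activated KCNT1 and KCNT2 ran from 5.23 to 10.5 and 0.731 to 2.54 TPM, and the small-conductance calcium-activated KCNN2 from 1.14 to 3.45 TPM. The beta subunits KCNE3 and KCNE2 ran from 1.55 to 3.26 and 0.737 to 1.77 TPM. Ordered by level in empty vector sgRosa, KCNB2 and KCNJ11 led, and their libraries overlapped. Of the 30 neighbouring pairs in that order, 7 had libraries that did not overlap, such as KCNJ11 above KCNH3 and KCNS3 above KCNQ1.

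**Figure D1:**
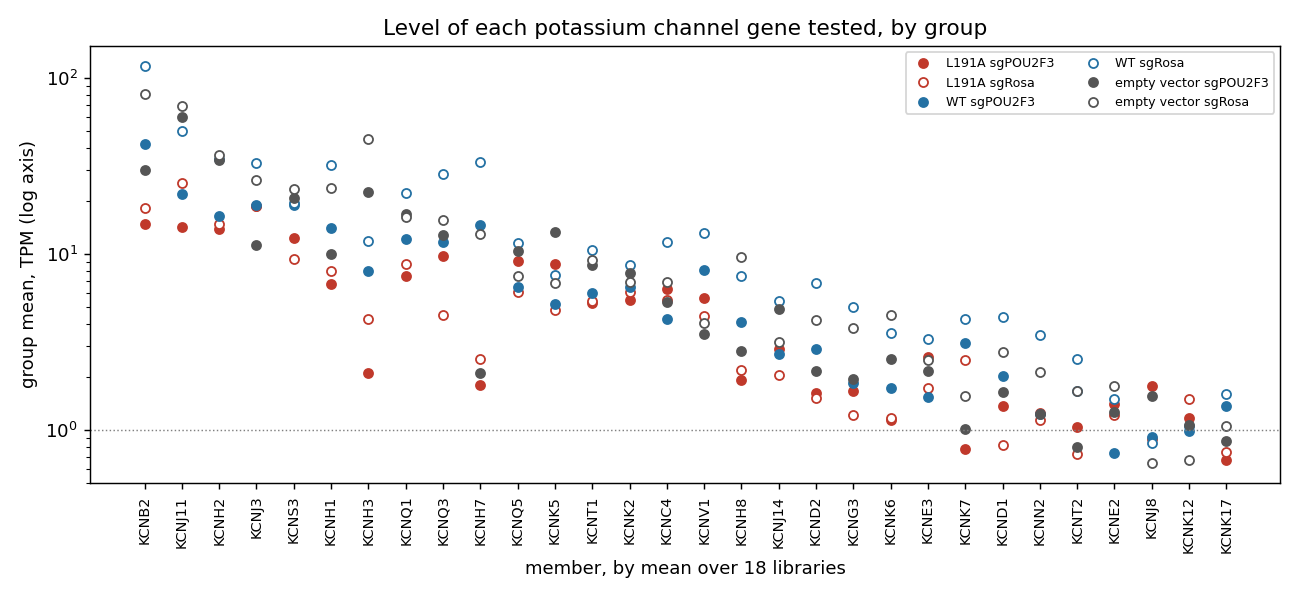
Mean level (TPM, log axis) of 30 of the 31 tested potassium channel genes in the 6 groups of 3 libraries, ordered by mean level, with a dotted line at 1 TPM. KCNB2 and KCNJ11 lead, and KCNH3 and KCNH7 spread widely over the groups, at 2.12 to 45.0 TPM and 1.80 to 33.2 TPM.

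In the empty vector line, which carries no rescue cDNA, sgPOU2F3 lowered KCNH7, KCNH8 and KCNH3 and raised KCNJ8, relative to sgRosa. Over 18 libraries 1 of 31 members was called higher, where 7.94% of all tested genes were, and 3 were called lower, where 9.51% of all genes were (limma, adjusted p under 0.05). Over 16 libraries 4 were higher against 19.0% of all genes, and 12 were lower, 38.7% of members against 32.7% of all genes. The median log2 change was -0.33 over members and -0.13 over all genes over 18 libraries. With median-ratio scaling 2 members were higher, 6.45% against 12.6% of all genes, and 8 lower, 25.8% against 13.8% of all genes, over 18 libraries. The libraries left out belong to other groups, so they change the pooled spread here and not the log2 change. Leaving out replicate 1 of L191A sgRosa alone gave 11 calls, for which the share of all genes is not given.

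KCNH7 lies on chromosome 2 from 162371407 to 162838730, on the minus strand (GENCODE annotation of GRCh38). It stood at 2.06, 1.81 and 2.42 TPM in empty vector sgPOU2F3, against 11.8, 9.73 and 17.2 TPM in empty vector sgRosa. All sgPOU2F3 libraries lay far below all sgRosa libraries. The log2 change of KCNH7 was -2.14 ± 0.34 (SE, adjusted p = 0.000333) over 18 libraries and -2.14 ± 0.17 (SE, adjusted p = 6.42e-08) over 16. Exons of KCNH7 overlap those of GCA on the other strand, and the strand setting of the counting is not given, so reads of the 2 genes may be mixed. GCA averaged 71.5 TPM in empty vector sgPOU2F3 and 121 TPM in empty vector sgRosa, a log2 change of -0.75 (adjusted p = 0.000156).

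KCNH8 stood at 2.02, 3.49 and 2.87 TPM in empty vector sgPOU2F3, against 9.01, 8.16 and 11.5 TPM in empty vector sgRosa. The groups did not overlap, and KCNH8 changed by -1.48 ± 0.34 (SE, adjusted p = 0.00723) over 18 libraries and -1.48 ± 0.16 (SE, adjusted p = 1.53e-06) over 16. KCNH3, the other ELK-type gene, stood at 21.0, 27.5 and 19.3 TPM in empty vector sgPOU2F3, against 45.0, 39.3 and 50.7 TPM in empty vector sgRosa. Again every sgPOU2F3 library was below every sgRosa library. KCNH3 changed by -0.97 ± 0.29 (SE, adjusted p = 0.033) over 18 libraries and -0.97 ± 0.15 (SE, adjusted p = 6.42e-05) over 16, and leaving out any 1 of 5 libraries ended the 18-library call. Exons of KCNH3, which lies on chromosome 12 from 49539157 to 49558308 on the plus strand, overlap MCRS1 on the other strand, whose log2 change was 0.23 (adjusted p = 0.265) over 18 libraries and 0.23 (adjusted p = 0.0177) over 16. KCNJ8, at 1.51, 1.74 and 1.41 TPM in empty vector sgPOU2F3 against 0.755, 0.759 and 0.430 TPM in empty vector sgRosa, changed by 0.63 ± 0.19 (SE, adjusted p = 0.0328) over 18 libraries and 0.63 ± 0.14 (SE, adjusted p = 0.00138) over 16. Its groups did not overlap, but all its values were under 2 TPM, and leaving out any 1 of 6 libraries ended the 18-library call.

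KCNB2, KCNJ3 and KCNH1 were lower by a similar size, but only the 16-library fit called them. KCNB2 stood at 22.9, 40.8 and 26.0 TPM in empty vector sgPOU2F3, against 72.6, 59.5 and 111 TPM in empty vector sgRosa. Its sgPOU2F3 libraries were all below its sgRosa libraries, and the log2 change was -1.40 ± 0.50 (SE, adjusted p = 0.0675) over 18 libraries and -1.40 ± 0.20 (SE, adjusted p = 3.43e-05) over 16. KCNJ3 stood at 9.87, 13.4 and 10.5 TPM in empty vector sgPOU2F3, against 26.3, 20.1 and 32.3 TPM in empty vector sgRosa. These too did not overlap, with a log2 change of -1.14 ± 0.43 (SE, adjusted p = 0.0861) over 18 libraries and -1.14 ± 0.14 (SE, adjusted p = 8.54e-06) over 16. KCNH1 averaged 9.95 ± 2.61 TPM in empty vector sgPOU2F3 and 23.5 ± 4.72 TPM in empty vector sgRosa (SD, n = 3 each), a change of -1.17 ± 0.17 (SE, adjusted p = 3.18e-05) by limma over 16 libraries and -1.17 ± 0.46 (SE, adjusted p = 0.0996) over 18.

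Smaller decreases passed over 16 libraries alone. KCNG3 stood at 1.61, 2.82 and 1.45 TPM in empty vector sgPOU2F3, against 3.97, 2.70 and 4.74 TPM in empty vector sgRosa. Its second sgPOU2F3 library reached into the sgRosa range. The log2 change of KCNG3 over 16 libraries was -0.70 ± 0.21 (SE, adjusted p = 0.0115). The A-type pores KCND1 (-0.54, adjusted p = 0.00643) and KCND2 (-0.73, adjusted p = 0.00502), the leak channel KCNK6 (-0.65, adjusted p = 0.0164) and the sodium-activated KCNT2 (-0.54, adjusted p = 0.0151) were also among the 12.

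The largest increase was that of KCNK5, a leak channel. It stood at 13.0, 15.1 and 11.99 TPM in empty vector sgPOU2F3, against 6.53, 6.69 and 7.29 TPM in empty vector sgRosa. Every sgPOU2F3 library exceeded every sgRosa library. KCNK5 changed by 0.87 ± 0.29 (SE, adjusted p = 0.0533) over 18 libraries, short of the threshold, and by 0.87 ± 0.14 (SE, adjusted p = 8.32e-05) over 16. KCNJ14, an inward rectifier, stood at 3.49, 6.68 and 4.39 TPM in empty vector sgPOU2F3 against 3.42, 3.16 and 2.94 TPM in empty vector sgRosa, and KCNQ5 at 8.59, 12.9 and 9.70 TPM in empty vector sgPOU2F3 against 7.72, 6.85 and 7.72 TPM in empty vector sgRosa. The groups did not overlap for either gene, and the 16-library changes were 0.45 ± 0.18 (SE, adjusted p = 0.0473) for KCNJ14 and 0.42 ± 0.14 (SE, adjusted p = 0.0201) for KCNQ5. KCNJ14 shares exon sequence with GRWD1 on the same strand, which changed by 0.84 (adjusted p = 0.0494) over 18 libraries. KCNC4, at 3.63, 7.92 and 4.33 TPM in empty vector sgPOU2F3 against 5.98, 5.83 and 8.99 TPM in empty vector sgRosa, KCNH2, at 29.7, 44.0 and 28.5 TPM in empty vector sgPOU2F3 against 34.0, 30.4 and 44.9 TPM in empty vector sgRosa, and KCNQ3, at 8.92, 19.2 and 10.3 TPM in empty vector sgPOU2F3 against 15.2, 13.5 and 17.99 TPM in empty vector sgRosa, had overlapping groups and passed in neither fit. The same held for the top inward rectifier KCNJ11, at 47.1, 81.5 and 50.4 TPM in empty vector sgPOU2F3 against 66.3, 62.3 and 78.4 TPM in empty vector sgRosa.

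**Figure D2:**
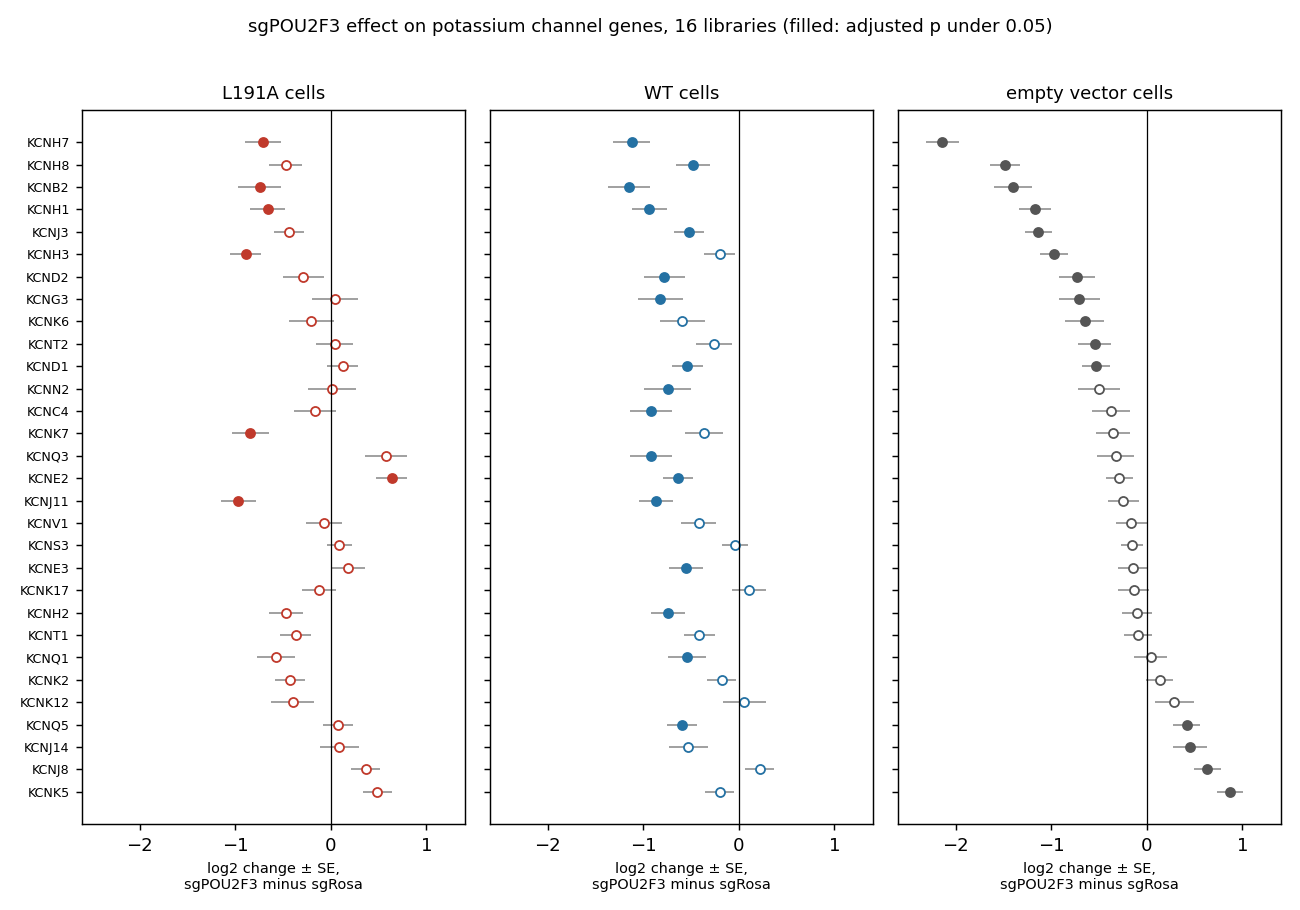
Log2 change with sgPOU2F3 against sgRosa (log2 of TPM + 1, with SE) of 30 of the 31 tested members in the L191A, WT and empty vector lines over 16 libraries, filled points having an adjusted p under 0.05. KCNH7 has the largest decrease in the empty vector line (-2.14), and the WT line has 17 filled points, all below 0.

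Markers of other cell types moved with the guide. All 4 markers of a YAP-high or mesenchymal state were tested, and their sum was 582 to 708 TPM in empty vector sgPOU2F3 and 12.9 to 16.1 TPM in empty vector sgRosa, with 93.3 to 159 and 31.9 to 43.6 TPM in WT sgPOU2F3 and WT sgRosa, and 583 to 689 and 61.7 to 131 TPM in L191A sgPOU2F3 and L191A sgRosa. The 4 muscle markers, the cardiac troponin gene TNNT2, ACTN2, DES and MYH7, summed to 32.5 to 34.9 TPM in empty vector sgPOU2F3 and 8.20 to 10.4 TPM in empty vector sgRosa, to 6.47 to 11.1 TPM in WT sgPOU2F3 and 12.4 to 15.6 TPM in WT sgRosa, and to 148 to 154 TPM in L191A sgPOU2F3 and 10.7 to 14.3 TPM in L191A sgRosa. Most of the high sums was TNNT2, at 149 TPM in L191A sgPOU2F3 and 9.51 TPM in L191A sgRosa, and 29.6 TPM in empty vector sgPOU2F3 and 1.88 TPM in empty vector sgRosa. ACTN2 had 2.02 TPM in L191A sgPOU2F3 and 2.48 TPM in L191A sgRosa, and 3.66 TPM in empty vector sgPOU2F3 and 7.33 TPM in empty vector sgRosa, and MYH7 and DES stayed under 0.1 and 1 TPM. The 4 neuronal markers summed to 34.0 to 42.1 TPM in empty vector sgPOU2F3 and 44.4 to 54.6 TPM in empty vector sgRosa, 35.9 to 47.2 TPM in WT sgPOU2F3 and 40.8 to 51.0 TPM in WT sgRosa, and 64.8 to 70.6 TPM in L191A sgPOU2F3 and 5.80 to 42.2 TPM in L191A sgRosa. Most of the neuronal sums was MAP2, at 64.7 TPM in L191A sgPOU2F3 and 26.5 TPM in L191A sgRosa, and 36.4 TPM in empty vector sgPOU2F3 and 44.3 TPM in empty vector sgRosa. SNAP25 averaged 1.99 TPM over all libraries. The other neuronal markers, RBFOX3 and NEFL, were under 0.1 TPM on average, as was DDC of 6 neuroendocrine markers. The part of these shifts, and of the tuft marker shift given above, in the channel values was not tested.

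In the WT line, whose cDNA resists the guide, sgPOU2F3 lowered KCNJ11, KCNG3 and KCNN2 relative to sgRosa over 18 libraries. No member was called higher in either fit, where 1.54% of all genes were higher over 18 libraries and 5.69% over 16. The 3 called lower were 9.68% of members against 5.17% of all genes, and over 16 libraries 18 were lower, 58.1% against 30.4%. The median log2 change over 16 libraries was -0.54 over members and -0.26 over all genes. With median-ratio scaling, which sets the median of all genes aside, 6 members were lower over 18 libraries, where 6.64% of all genes were higher and 5.98% lower, and 11 over 16, 35.5% of members against 10.2% of all genes. Replicate 1 of WT sgPOU2F3 is one of the libraries that stood apart and was the lowest of its group for every member given in full except KCNH7. Without it alone 0 members were called, and without replicate 1 of L191A sgRosa alone 23 were. The shares of all genes called in those fits are not given, so these counts are no result about the members.

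KCNJ11 stood at 11.9, 24.7 and 29.2 TPM in WT sgPOU2F3, against 55.7, 46.3 and 47.6 TPM in WT sgRosa. The groups did not overlap, and KCNJ11 changed by -1.24 ± 0.28 (SE, adjusted p = 0.0244) over 18 libraries and -0.87 ± 0.18 (SE, adjusted p = 0.00626) over 16. Leaving out any 1 of 4 libraries ended the 18-library call. KCNG3 stood at 0.707, 1.88 and 2.92 TPM in WT sgPOU2F3, against 6.30, 4.55 and 4.19 TPM in WT sgRosa. It changed by -1.15 ± 0.31 (SE, adjusted p = 0.0428) over 18 libraries and -0.82 ± 0.24 (SE, adjusted p = 0.0213) over 16, without overlap, and any 1 of 12 libraries could end the 18-library call. KCNN2 averaged 1.23 ± 0.694 TPM in WT sgPOU2F3 and 3.45 ± 0.954 TPM in WT sgRosa (SD, n = 3 each), changed by -1.03 ± 0.27 (SE, adjusted p = 0.0392) by limma over 18 libraries and -0.74 ± 0.25 (SE, adjusted p = 0.0335) over 16, and lost the call without any 1 of 11 libraries.

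Voltage-gated members made up most of the rest of the 18. KCNB2 stood at 22.3, 54.5 and 49.4 TPM in WT sgPOU2F3, against 133, 105 and 113 TPM in WT sgRosa, and changed by -1.15 ± 0.22 (SE, adjusted p = 0.00387) over 16 libraries. Its libraries fell into separate ranges, and replicate 1 was the lowest of all. KCNH7 stood at 13.9, 17.4 and 12.4 TPM in WT sgPOU2F3, against 31.8, 31.0 and 36.8 TPM in WT sgRosa, and changed by -1.12 ± 0.19 (SE, adjusted p = 0.00159). Here replicate 1 was not the lowest of the sgPOU2F3 libraries, and all 3 lay below every sgRosa library. KCNQ3 stood at 6.23, 15.03 and 13.9 TPM in WT sgPOU2F3, against 32.1, 26.0 and 26.9 TPM in WT sgRosa, and changed by -0.92 ± 0.22 (SE, adjusted p = 0.0107). KCNC4 stood at 1.46, 5.68 and 5.69 TPM in WT sgPOU2F3, against 11.5, 10.8 and 12.6 TPM in WT sgRosa, and changed by -0.92 ± 0.22 (SE, adjusted p = 0.0114). Both genes had separate groups, with replicate 1 of WT sgPOU2F3 well below its partners.

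KCNH2 stood at 8.35, 19.6 and 21.0 TPM in WT sgPOU2F3, against 37.9, 32.1 and 33.8 TPM in WT sgRosa, and changed by -0.74 ± 0.18 (SE, adjusted p = 0.0113) over 16 libraries. All its sgPOU2F3 libraries stayed under the sgRosa range. KCNQ5 stood at 4.75, 7.32 and 7.27 TPM in WT sgPOU2F3 against 13.8, 10.6 and 10.4 TPM in WT sgRosa and changed by -0.59 ± 0.16 (SE, adjusted p = 0.0163), and KCNH8 stood at 2.16, 5.45 and 4.67 TPM in WT sgPOU2F3 against 8.04, 6.76 and 7.54 TPM in WT sgRosa and changed by -0.48 ± 0.17 (SE, adjusted p = 0.044). KCNJ3 stood at 11.3, 22.6 and 22.6 TPM in WT sgPOU2F3, against 35.4, 31.5 and 32.2 TPM in WT sgRosa, and changed by -0.53 ± 0.16 (SE, adjusted p = 0.0236). None of the 3 overlapped between guides. Also lower over 16 libraries were KCNH1 (-0.93, adjusted p = 0.00435), KCND2 (-0.78, adjusted p = 0.0181), KCND1 (-0.54, adjusted p = 0.0249), KCNQ1 (-0.54, adjusted p = 0.0452), KCNE2 (-0.63, adjusted p = 0.014) and KCNE3 (-0.55, adjusted p = 0.0292). KCNH3, at 3.51, 9.15 and 11.2 TPM in WT sgPOU2F3 against 12.9, 10.8 and 11.6 TPM in WT sgRosa, KCNK5, at 2.78, 6.13 and 6.76 TPM in WT sgPOU2F3 against 8.53, 6.34 and 7.87 TPM in WT sgRosa, and KCNJ14, at 1.15, 2.73 and 4.21 TPM in WT sgPOU2F3 against 5.87, 4.93 and 5.28 TPM in WT sgRosa, passed in neither fit.

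In the L191A line, sgPOU2F3 lowered KCNK7, placed by its symbol in the tandem-pore leak class and the only member called over 18 libraries. That is 0 of 31 higher, where 5.43% of all genes were, and 1 lower, where 0.566% were. Over 16 libraries 1 was higher against 7.35% of all genes, and 6 were lower, 19.4% of members against 3.33%. The median log2 change was -0.20 over members and 0.01 over all genes in 16 libraries, and 0.20 and 0.33 in 18. With scaling 1 was higher and 3 lower over 18 libraries, where 6.41% of all genes were higher and 3.24% lower, and 3 higher and 12 lower over 16, where 9.13% and 6.12% of all genes were. Leaving out replicate 1 of WT sgPOU2F3, or replicate 1 or 3 of L191A sgRosa, gave 3 calls, and leaving out replicate 2 of L191A sgRosa gave 4.

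KCNK7 stood at 1.02, 0.739 and 0.571 TPM in L191A sgPOU2F3, against 3.16, 2.51 and 1.86 TPM in L191A sgRosa. The groups did not overlap, KCNK7 changed by -0.97 ± 0.19 (SE, adjusted p = 0.00416) over 18 libraries and -0.84 ± 0.20 (SE, adjusted p = 0.0096) over 16, and no single library ended the call. KCNJ11 stood at 14.4, 15.3 and 12.9 TPM in L191A sgPOU2F3, against 18.7, 27.1 and 30.3 TPM in L191A sgRosa, and changed by -0.97 ± 0.18 (SE, adjusted p = 0.00167) over 16 libraries and -0.77 ± 0.28 (SE, adjusted p = 0.138) over 18. KCNH3 stood at 2.40, 1.98 and 1.98 TPM in L191A sgPOU2F3, against 3.14, 5.52 and 4.10 TPM in L191A sgRosa, and changed by -0.89 ± 0.17 (SE, adjusted p = 0.00149) over 16 libraries and -0.73 ± 0.29 (SE, adjusted p = 0.179) over 18. For both genes every sgPOU2F3 library was below every sgRosa library, also below replicate 1.

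KCNB2 stood at 14.3, 14.97 and 15.04 TPM in L191A sgPOU2F3, against 4.08, 25.9 and 25.0 TPM in L191A sgRosa, and KCNH7 at 1.71, 1.76 and 1.92 TPM in L191A sgPOU2F3 against 0.491, 3.56 and 3.57 TPM in L191A sgRosa. In each, replicate 1 of L191A sgRosa lay below the sgPOU2F3 libraries and the other sgRosa libraries above them. The sign of KCNB2 turned on that library, with a log2 change of 0.05 ± 0.50 (SE, adjusted p = 0.95) over 18 libraries and -0.74 ± 0.22 (SE, adjusted p = 0.0425) over 16. KCNH1 did likewise (0.13 over 18 libraries and -0.66 over 16, adjusted p = 0.0294), and KCNH7 changed by -0.71 ± 0.19 (SE, adjusted p = 0.0237) over 16. The beta subunit KCNE2 had the opposite arrangement, at 1.48, 1.50 and 1.21 TPM in L191A sgPOU2F3 against 2.55, 0.534 and 0.542 TPM in L191A sgRosa, and was higher over 16 libraries by 0.64 ± 0.16 (SE, adjusted p = 0.0151). The other members given in full passed in neither fit. Examples are KCNJ3, at 18.7, 18.04 and 19.1 TPM in L191A sgPOU2F3 against 4.99, 24.5 and 26.8 TPM in L191A sgRosa, KCNK5, at 8.55, 8.71 and 8.95 TPM in L191A sgPOU2F3 against 2.35, 4.96 and 7.11 TPM in L191A sgRosa, and KCNQ3, at 10.2, 9.49 and 9.60 TPM in L191A sgPOU2F3 against 1.03, 6.54 and 5.89 TPM in L191A sgRosa. KCNH8, at 1.90, 2.00 and 1.86 TPM in L191A sgPOU2F3 against 0.432, 3.42 and 2.70 TPM in L191A sgRosa, also had sgPOU2F3 libraries between replicate 1 and the other sgRosa libraries.

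KCNH2 stood at 12.8, 15.1 and 13.4 TPM in L191A sgPOU2F3, against 5.26, 17.6 and 21.2 TPM in L191A sgRosa. It had the same arrangement as KCNH8, replicate 1 of L191A sgRosa being the lowest. KCNC4 stood at 6.19, 6.55 and 6.25 TPM in L191A sgPOU2F3, against 1.87, 6.73 and 7.74 TPM in L191A sgRosa. KCNQ5 stood at 8.64, 9.13 and 9.37 TPM in L191A sgPOU2F3, against 1.24, 7.92 and 9.12 TPM in L191A sgRosa. KCNJ14 stood at 2.46, 3.43 and 2.78 TPM in L191A sgPOU2F3, against 0.842, 2.38 and 2.91 TPM in L191A sgRosa. The range of the sgRosa libraries took in sgPOU2F3 libraries in all 3 genes. The same held for KCNG3, at 1.87, 1.50 and 1.62 TPM in L191A sgPOU2F3, against 0.421, 2.04 and 1.19 TPM in L191A sgRosa.

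The 3 lines have separate sgRosa libraries, so their guide effects can be counted together. Over 16 libraries 9 members were lower with sgPOU2F3 in both the WT and empty vector lines (among them KCNB2, KCND1, KCND2, KCNG3, KCNH1, KCNH7, KCNH8 and KCNJ3), against 13.7% of all tested genes. In the same fit KCNB2, KCNH1 and KCNH7 were lower in all 3 lines, 9.68% of members against 1.36% of all tested genes. They were 50.0% of the members lower in L191A, where the same share over all genes was 40.9%, 16.7% of those lower in WT, against 4.48%, and 25.0% of those lower in the empty vector line, against 4.17%. Over 16 libraries limma called 0 members higher with the guide both in the empty vector line and in WT or L191A, against 6.94% of all genes. Over 18 libraries no member called lower was shared between lines. Those were KCNH3, KCNH7 and KCNH8 in the empty vector line, KCNJ11, KCNG3 and KCNN2 in WT and KCNK7 in L191A. KCNB2 and KCNH1 had a positive change in L191A over 18 libraries.

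The guide effects themselves were set against each other with interaction terms. Between L191A and WT, 5 of 31 members had a more positive effect in L191A and 0 a more negative one over 18 libraries. Of all genes 11.7% differed, 10.7% more positive and 0.972% more negative. Over 16 libraries 3 members were more positive and 0 more negative. Of all genes 13.2% differed there, 11.4% more positive and 1.74% more negative. Scaling gave 3 and 0 members over 18 libraries, where 7.08% and 5.98% of all genes were more positive and more negative. Over 16 libraries scaling gave 2 and 2 members, where 7.84% and 6.83% of all genes were. KCNQ3 differed by 2.47 ± 0.60 (SE, adjusted p = 0.0222) over 18 libraries and 1.50 ± 0.31 (SE, adjusted p = 0.00518) over 16, the effect being 0.58 in L191A and -0.92 in WT over 16. KCNK5 differed by 1.36 ± 0.42 (SE, adjusted p = 0.0474) over 18 and 0.68 ± 0.21 (SE, adjusted p = 0.0466) over 16, with effects of 0.48 in L191A and -0.20 in WT. KCND1, KCNE3 and KCNG3 differed over 18 libraries only (adjusted p = 0.0461, 0.037 and 0.0433), and KCNE2 over 16 only, by 1.27 ± 0.23 (SE, adjusted p = 0.0018). Of the 4 groups in this contrast, L191A sgRosa and WT sgPOU2F3 each hold a library that stood apart. The count of 5 over 18 libraries became 0 without replicate 1 of WT sgPOU2F3 alone and 19 without replicate 2 of L191A sgRosa.

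Between L191A and the empty vector line, 1 member differed over 18 libraries, against 6.08% of all genes, and 7 over 16, against 23.3%. Scaling gave 2 more positive and 2 more negative effects over 18 libraries, where 12.2% of all genes differed. The member called over 18 libraries as deposited was KCNH7, whose decrease was smaller in L191A (-0.17) than in the empty vector line (-2.14), a difference of 1.97 ± 0.47 (SE, adjusted p = 0.0249) over 18 libraries and 1.43 ± 0.26 (SE, adjusted p = 0.00122) over 16. Its level in L191A was already 2.54 TPM with sgRosa, against 12.9 TPM in empty vector sgRosa. The other 6 over 16 libraries were KCND1, KCNE2, KCNH8, KCNJ3 and KCNQ3, each more positive in L191A, and KCNJ11, more negative (-0.72, adjusted p = 0.0434). Between WT and the empty vector line limma called 0 members over 18 libraries, against 6.99% of all genes, and 7 over 16, against 26.7%. Scaling gave 1 more positive and 2 more negative effects over 18, where 15.3% of all genes differed. Of the 7 called over 16 libraries, KCNH3, KCNH7, KCNH8 and KCNJ3 had a smaller decrease in WT, as for KCNH8 (1.01 ± 0.23 SE, adjusted p = 0.00535). KCNK5 (-1.07 ± 0.20 SE, adjusted p = 0.00134), KCNQ5 (-1.01 ± 0.21 SE, adjusted p = 0.00251) and KCNJ14 (-0.98 ± 0.27 SE, adjusted p = 0.0148) were raised by the guide in the empty vector line and not in WT. The contrasts of this and the preceding paragraph share libraries with each other.

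**Figure D3:**
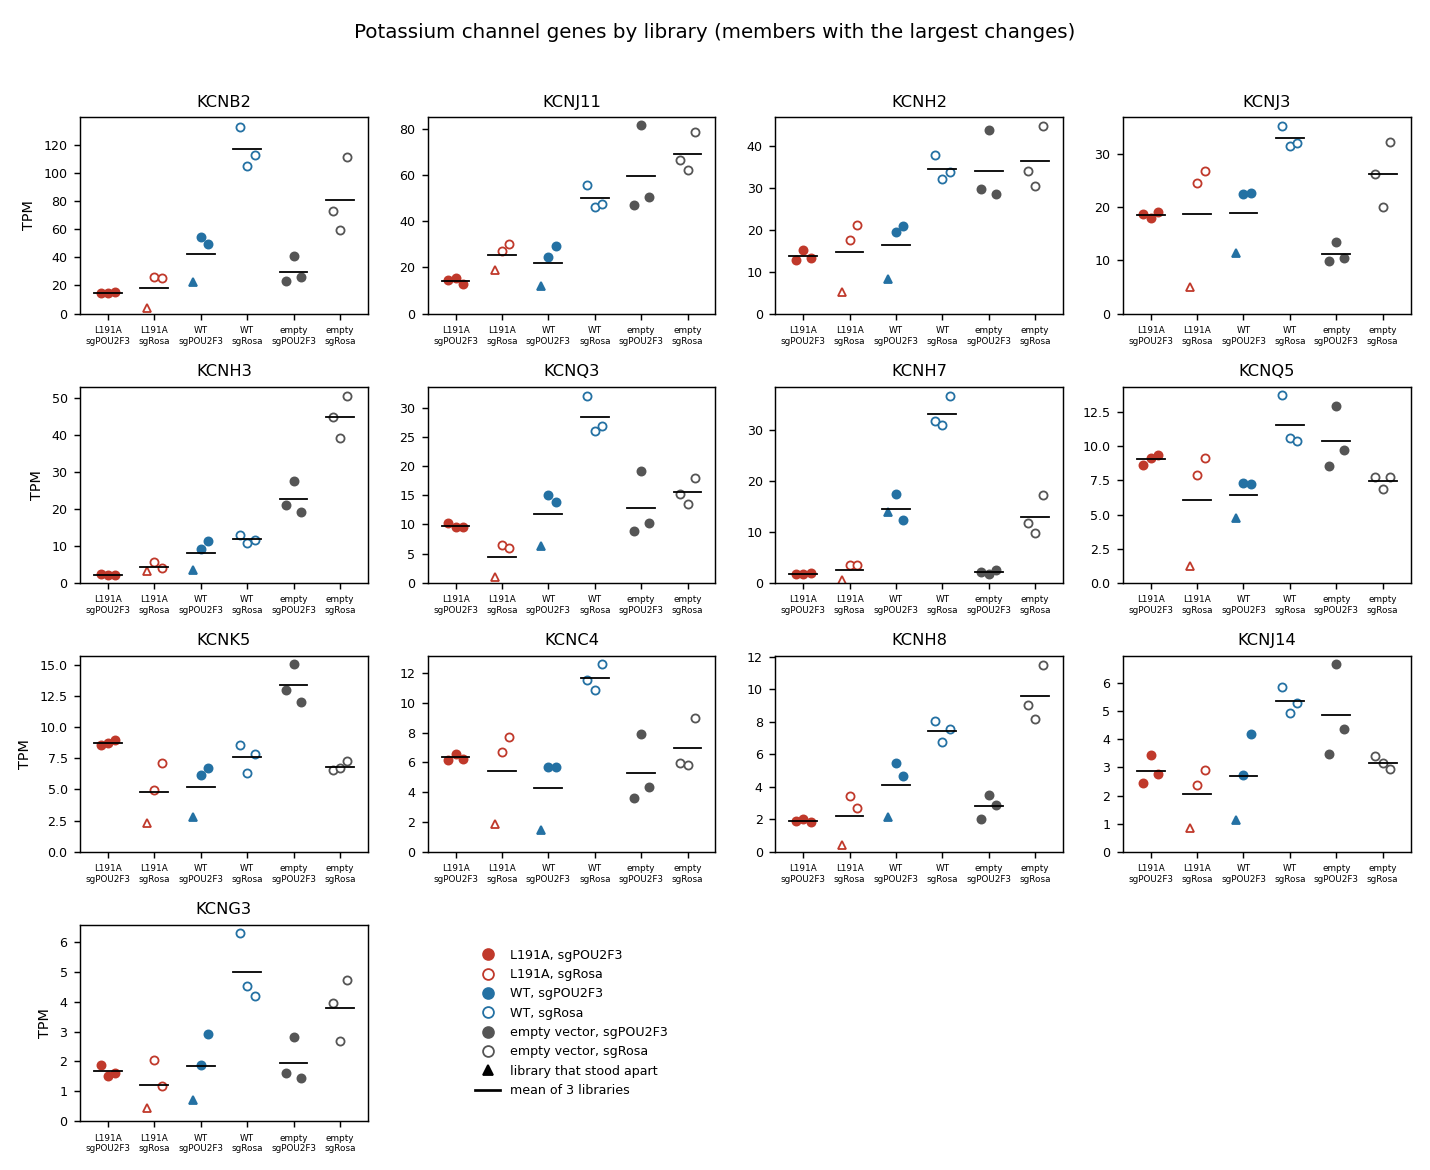
Level (TPM) in each of the 18 libraries of the 13 members given in full, by group, with triangles for the libraries that stood apart. KCNH7 and KCNH8 show separate sgPOU2F3 and sgRosa libraries in the empty vector line, and replicate 1 of L191A sgRosa is far below its group for KCNB2 and KCNQ3.

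Under sgPOU2F3, the WT line differed from the empty vector line most in KCNH7, which was higher. Over 18 libraries 2 members were higher, where 6.67% of all genes were, and 3 lower, where 13.9% were. Over 16 libraries 11 were higher, 35.5% of members against 18.9% of all genes, and 6 lower, 19.4% against 24.7%. The members' median was 0.05 and that of all genes -0.05 over 16 libraries, and with scaling 5 were higher and 5 lower over 18, where 14.6% of all genes were higher and 15.9% lower. From the libraries given above, KCNH7 averaged 14.6 ± 2.54 TPM in WT sgPOU2F3 and 2.09 ± 0.307 TPM in empty vector sgPOU2F3 (SD, n = 3 each), a log2 difference of 2.32 ± 0.34 (SE, adjusted p = 0.000158) by limma over 18 libraries. GCA, which it overlaps, differed by 1.10 (adjusted p = 3.19e-06). KCNK7 was also higher in WT, at 3.03, 3.98 and 2.34 TPM in WT sgPOU2F3 against 0.816, 0.815 and 1.42 TPM in empty vector sgPOU2F3, by 1.02 ± 0.19 (SE, adjusted p = 0.00123). These 2 genes had no overlap between lines.

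KCNH3 averaged 7.95 ± 3.98 TPM in WT sgPOU2F3 and 22.6 ± 4.32 TPM in empty vector sgPOU2F3 (SD, n = 3 each), and was lower in WT by limma, with -1.50 ± 0.29 (SE, adjusted p = 0.00192). KCNJ11 differed by -1.45 ± 0.28 (SE, adjusted p = 0.0018) and KCNK5 by -1.27 ± 0.29 (SE, adjusted p = 0.0062), each with all WT libraries under all empty vector libraries. The 16-library fit added KCNV1 (1.24), KCNJ3 (0.96), KCNB2 (0.82), KCNH8 (0.69), KCNH1, KCND1, KCND2, KCNT2 and KCNK17 as higher and KCNH2 (-0.70), KCNQ5 (-0.44) and KCNE2 (-0.48) as lower. That fit leaves out replicate 1 of WT sgPOU2F3. With this library the lines overlapped for KCNB2, KCNJ3, KCNH8, KCNH1, KCND1, KCND2, KCNK17 and KCNE2. They did not overlap for KCNV1, KCNT2, KCNH2 and KCNQ5.

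L191A with sgPOU2F3 was lower than the empty vector line with sgPOU2F3 in KCNH3 and KCNJ11. Over 18 libraries 0 members were higher, where 1.61% of all genes were, and 2 lower, where 2.17% were. Over 16 libraries 2 were higher against 8.27%, and 13 lower, 41.9% of members against 14.6% of all genes, with medians of -0.24 over members and -0.06 over all genes. Scaling gave 2 higher and 7 lower over 18, 6.45% and 22.6% of members against 3.92% and 4.26% of all genes. None of the 6 libraries in this contrast stood apart. KCNH3 averaged 2.12 ± 0.242 TPM in L191A sgPOU2F3 and 22.6 ± 4.32 TPM in empty vector sgPOU2F3 (SD, n = 3 each), a log2 difference of -2.91 ± 0.29 (SE, adjusted p = 1.08e-05) by limma. MCRS1, the gene on its other strand, differed by -0.19 (adjusted p = 0.701). KCNJ11 averaged 14.2 ± 1.19 TPM in L191A sgPOU2F3 and 59.6 ± 19.0 TPM in empty vector sgPOU2F3 (SD, n = 3 each), by limma -1.96 ± 0.28 (SE, adjusted p = 0.000361). ABCC8, the sulfonylurea receptor subunit that assembles with KCNJ11, averaged 4.10 TPM in L191A sgPOU2F3 and 19.8 TPM in empty vector sgPOU2F3, -2.00 ± 0.31 (SE, adjusted p = 0.000765).

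Lower over 16 libraries alone were, among others, KCNH2 (-1.22 ± 0.16 SE, adjusted p = 4.15e-05), KCNQ1 (-1.04 ± 0.18 SE, adjusted p = 0.000562), KCNB2 (-0.93 ± 0.20 SE, adjusted p = 0.00346) and KCNS3 (-0.71 ± 0.12 SE, adjusted p = 0.000433), and, by less, KCNK6, KCNT1, KCNJ14, KCNK5, KCNH1 and KCNK2. The groups did not overlap for any of these. KCNJ3 was higher, averaging 18.6 ± 0.526 TPM in L191A sgPOU2F3 and 11.3 ± 1.89 TPM in empty vector sgPOU2F3 (SD, n = 3 each), by limma 0.69 ± 0.14 (SE, adjusted p = 0.00233). KCNV1, a modifier subunit, was higher by 0.57 ± 0.17 (SE, adjusted p = 0.0212).

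Set against WT sgPOU2F3, L191A sgPOU2F3 was lower in KCNH7, KCNH3 and KCNK7. Over 18 libraries 0 members were higher, where 7.77% of all genes were, and 3 lower, where 5.72% were. Over 16 libraries 1 was higher against 18.4% of all genes, and 17 were lower, 54.8% of members against 18.9%. The median over members was -0.53 and that over all genes -0.01. Scaling gave 3 higher and 11 lower over 18 libraries, where 10.5% and 11.6% of all genes were, and 4 higher and 20 lower over 16, where 22.1% and 22.3% were. KCNH7 differed by -2.46 ± 0.34 (SE, adjusted p = 0.000103), KCNH3 by -1.40 ± 0.29 (SE, adjusted p = 0.00444) and KCNK7 by -1.20 ± 0.19 (SE, adjusted p = 0.000439) over 18 libraries, none with overlap. GCA differed by -1.26 (adjusted p = 9.06e-07). Leaving out any single library ended none of the calls of these 3 sgPOU2F3 contrasts over 18 libraries, and leaving out replicate 1 of L191A sgRosa raised this count to 11.

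Over 16 libraries the lower members included KCNB2 (-1.75 ± 0.22 SE, adjusted p = 1.9e-05), KCNH1 (-1.16 ± 0.18 SE, adjusted p = 0.000148), KCNH8 (-1.05 ± 0.17 SE, adjusted p = 0.000214), KCNQ1 (-0.91 ± 0.20 SE, adjusted p = 0.002) and KCNJ11 (-0.88 ± 0.18 SE, adjusted p = 0.00138). In KCNB2, KCNH1 and KCNH8 all 6 libraries kept the lines apart, while in KCNQ1 and KCNJ11 replicate 1 of WT sgPOU2F3 lay below every L191A library. Also lower were KCND1, KCND2, KCNH2, KCNK17, KCNS3, KCNT1, KCNT2 and KCNV1, and KCNE2 was higher (0.57 ± 0.16 SE, adjusted p = 0.0106).

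**Figure D4:**
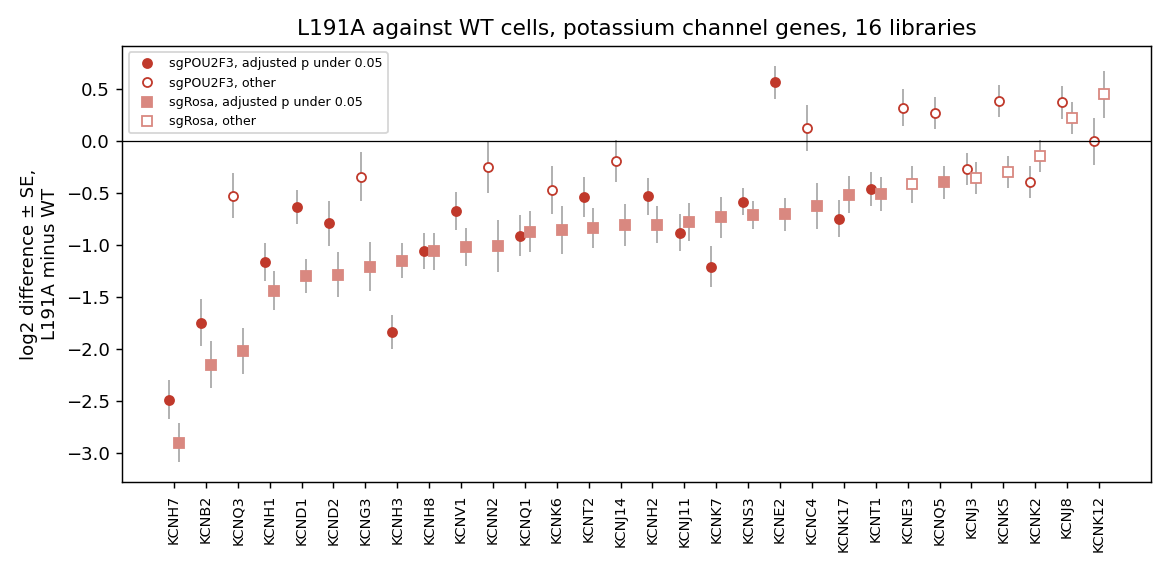
Log2 difference of L191A from WT (log2 of TPM + 1, with SE) for 30 of the 31 tested members under sgPOU2F3 and under sgRosa over 16 libraries, filled points having an adjusted p under 0.05. KCNH7 lies farthest below 0 under both guides, at -2.49 and -2.90.

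Under sgRosa, with endogenous POU2F3 not targeted, L191A cells were lower than WT cells in most members. Over 18 libraries 0 of 31 were higher and 26 lower, where 55.8% of all genes differed, 7.75% higher and 48% lower. Over 16 libraries 25 were lower, where 58.2% of all genes differed and 44.3% of all genes were lower. All 16 voltage-gated members were lower in both fits. The median was -0.80 over members and -0.31 over all genes in 16 libraries. Scaling moved the split to 1 higher and 16 lower over 18 libraries and to 2 and 21 over 16, where 29% of all genes were higher and 28.2% lower. After that scaling 14 of the 16 voltage-gated members were still called lower.

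KCNH7 averaged 2.54 ± 1.77 TPM in L191A sgRosa and 33.2 ± 3.10 TPM in WT sgRosa (SD, n = 3 each), by limma -3.44 ± 0.34 (SE, adjusted p = 3.97e-06) over 18 libraries and -2.90 ± 0.19 (SE, adjusted p = 1.46e-08) over 16. KCNB2 averaged 18.3 ± 12.3 TPM in L191A sgRosa and 117 ± 14.3 TPM in WT sgRosa (SD, n = 3 each), by limma -2.94 ± 0.50 (SE, adjusted p = 0.000433) and -2.15 ± 0.22 (SE, adjusted p = 1.98e-06). KCNQ3 averaged 4.49 ± 3.01 TPM in L191A sgRosa and 28.4 ± 3.28 TPM in WT sgRosa (SD, n = 3 each), by limma -2.63 ± 0.42 (SE, adjusted p = 0.000288) and -2.02 ± 0.22 (SE, adjusted p = 2.94e-06). All L191A libraries of these 3 genes, replicate 1 or not, were below all WT libraries. KCNJ3 was called over 18 libraries and not over 16 (-0.35 ± 0.16 SE, adjusted p = 0.0648), as was KCNE3 (-0.41 ± 0.18 SE, adjusted p = 0.057). Over 16 libraries 17 members were lower in L191A than in WT under both guides, 54.8% of members against 16.2% of all tested genes.

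L191A was also lower than the empty vector line under sgRosa, with 0 members higher and 15 lower over 18 libraries, where 36.0% of all genes differed, and 2 higher and 15 lower over 16, where 39.2% did. Scaling gave 3 higher and 14 lower over 18 libraries, where 16% of all genes were higher and 15.4% lower, against 4.94% and 31% unscaled. KCNH3 was the farthest down, averaging 4.25 ± 1.19 TPM in L191A sgRosa and 45.0 ± 5.70 TPM in empty vector sgRosa (SD, n = 3 each), by limma -3.15 ± 0.29 (SE, adjusted p = 3.63e-06) over 18 libraries and -2.99 ± 0.17 (SE, adjusted p = 2.48e-09) over 16. KCNH8 (-1.37 ± 0.17 SE over 16, adjusted p = 2.74e-05), KCNJ11 (-1.23 ± 0.18 SE, adjusted p = 0.000112) and KCNQ3 (-1.19 ± 0.22 SE, adjusted p = 0.000691) were also lower. KCNK12, the one tested member not called in any guide effect, sgPOU2F3 contrast or interaction over 18 or 16 libraries, was higher here over 16 (0.74 ± 0.23 SE, adjusted p = 0.0176).

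WT with sgRosa differed from the empty vector line with sgRosa in 4 members over 18 libraries, where 7.20% of all genes differed, and in 13 over 16, 11 of them higher, where 34.3% did. KCNH7 (1.33 ± 0.34 SE, adjusted p = 0.0234), KCNV1 (1.50 ± 0.35 SE, adjusted p = 0.0144) and KCNK7 (1.04 ± 0.19 SE, adjusted p = 0.0026) were higher in WT over 18 libraries, and KCNH3 was lower (-1.84 ± 0.29 SE, adjusted p = 0.000941). KCNH3 stood at 11.8 TPM in WT sgRosa and 45.0 TPM in empty vector sgRosa, so that both cDNA lines were below the empty vector line in this gene under both guides. The sgRosa contrasts share libraries with each other, and L191A sgRosa includes a library that stood apart.

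Summed over all 84 members, the level was 183 ± 3.81 TPM in L191A sgPOU2F3 and 185 ± 93.2 TPM in L191A sgRosa, 267 ± 91.2 TPM in WT sgPOU2F3 and 547 ± 51.4 TPM in WT sgRosa, and 330.0 ± 83.4 TPM in empty vector sgPOU2F3 and 480.0 ± 91.4 TPM in empty vector sgRosa (SD, n = 3 each). The libraries that stood apart had sums of 77.2 TPM in L191A sgRosa and 162 TPM in WT sgPOU2F3, against 235 and 242 TPM in the other L191A sgRosa libraries. Voltage-gated members held most of the sum, at 110 to 445 TPM over the other 16 libraries, ahead of the inward rectifiers at 39.2 to 116 TPM and the leak channels at 18.1 to 31.8 TPM. The libraries with the lowest sums also had the lowest medians over all tested genes, 7.05 and 12.7 TPM. At like medians the sums still differed, being 182 TPM at a median of 20.0 TPM in L191A sgPOU2F3 replicate 1 and 402 TPM at 20.8 TPM in empty vector sgRosa replicate 2. The part of the median in the sum was not tested.

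**Figure D5:**
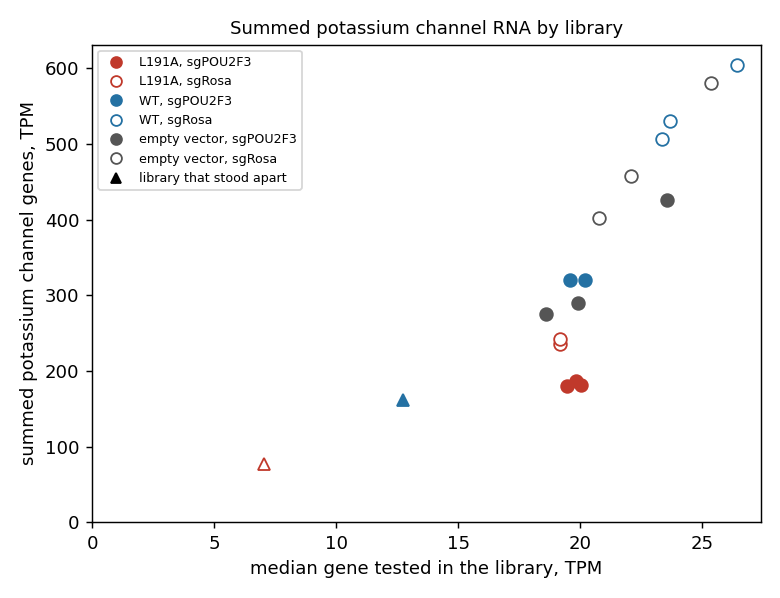
Summed level of the 84 members (TPM) against the median level of all tested genes (TPM) in each of the 18 libraries, by group. The libraries that stood apart lie at the lower left, at 77.2 and 162 TPM.

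Among 30 genes for partner subunits of these channels, 21 were tested, and in the empty vector line sgPOU2F3 raised 1 and lowered 3 over 18 libraries, where 7.94% and 9.51% of all genes were higher and lower, and raised 2 and lowered 8 over 16, where 19.0% and 32.7% were. The median log2 change was -0.28 over these genes and -0.13 over all genes. KCNIP4, a calcium-binding subunit of KCND channels, averaged 52.5 TPM in empty vector sgPOU2F3 and 167 TPM in empty vector sgRosa and changed by -1.64 ± 0.29 (SE, adjusted p = 0.000938). KCNAB2, a cytoplasmic beta subunit, averaged 4.42 TPM in empty vector sgPOU2F3 and 11.3 TPM in empty vector sgRosa and changed by -1.17 ± 0.32 (SE, adjusted p = 0.0183). ABCC8 averaged 19.8 TPM in empty vector sgPOU2F3 and 44.2 TPM in empty vector sgRosa and changed by -1.14 ± 0.31 (SE, adjusted p = 0.0196), where its pore KCNJ11 changed by -0.24 ± 0.28 (SE, adjusted p = 0.621). In WT, ABCC8 changed by -1.14 ± 0.31 (SE, adjusted p = 0.0444) with the guide, where KCNJ11 changed by -1.24 ± 0.28 (SE, adjusted p = 0.0244).

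Of 37 potassium pump and transporter genes 15 were tested, and in the empty vector line the guide raised 2 and lowered 1 over 18 libraries and raised 5 and lowered 8 over 16, beside the same shares of all genes. Their median log2 change was -0.54. FXYD5 and FXYD6, which regulate the sodium-potassium pump, changed by 2.81 ± 0.21 (SE, adjusted p = 8.41e-08) and -1.45 ± 0.15 (SE, adjusted p = 4.92e-06), and SLC12A4, a potassium-chloride cotransporter, by 1.61 ± 0.22 (SE, adjusted p = 9.17e-05).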

How the data were processed

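The deposited values were TPM, which the authors made with kallisto against hg38, per the submitters' processing notes. Its version, its transcript set and its use of strand were not given in the sources used here. Per the labels' protocols, RNA came from TRIzol extraction and polyA libraries from a TruSeq kit. TPM keep no depth, and they are relative, so a few abundant genes lower all others in a library. Of 19875 entries, 131 named no gene (104 were fragments of descriptions and 27 spreadsheet dates) and were left out, holding 1.644% to 2.428% of TPM.

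Each column was matched to its sample by its name. The 13066 genes that averaged 1 TPM or more were fitted as log2(TPM + 1) in limma 3.58.1 (R 4.3.3), with 1 coefficient per group, a variance trend and no block, and p-values were adjusted by Benjamini-Hochberg over all of them with a threshold of 0.05. A log2 change on this scale understates the change of low genes. The fit was tested on simulated data. The guide effect in each line, the differences between lines under each guide and the differences between guide effects were taken from it. Members named with values were those past the threshold in a guide effect, a line contrast or an interaction, and of those with a group mean of at least 5 TPM those with the largest changes were given for every library. A few results are not reported here, so counts can include genes that are not named. The members, gene lists and tests were chosen with earlier results of these data known. Alternatives were other pseudocounts, filters, median-ratio scaling, a replicate block, no variance trend, 16 libraries and each library left out. Replicate numbers did not pair the samples. Positions are from the GENCODE annotation of GRCh38 and promoters from RefSeq (GRCh38.p14).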

Additional observations from a re-analysis of the deposited data

Results flagged for a closer look

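For 6 members the effect of sgPOU2F3 differed between lines by an interaction term over 18 libraries (limma, adjusted over all genes). Between L191A and the empty vector line this was 1 of 31, 3.23% of members against 6.08% of all genes. Between L191A and WT it was 5, 16.1% of members against 11.7% of all genes. KCNH7 differed between L191A and the empty vector line by 1.97 ± 0.47 (SE, adjusted p = 0.0249), with effects of -0.17 in L191A and -2.14 in the empty vector line, and still did over 16 libraries. KCNQ3 differed between L191A and WT by 2.47 ± 0.60 (SE, adjusted p = 0.0222), with effects of 1.19 in L191A and -1.29 in WT. KCNK5 differed between L191A and WT by 1.36 ± 0.42 (SE, adjusted p = 0.0474), with effects of 0.84 in L191A and -0.52 in WT. Over 16 libraries without scaling KCNQ3 and KCNK5 kept their calls, with 1.50 and 0.68. With scaling too, 2 members were more positive in L191A than in WT and 2 more negative. Each was 6.45% of members, against 7.84% and 6.83% of all genes. No tandem-pore leak member, KCNK5 included, was called more positive in that fit.

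KCNG3 differed between L191A and WT by 1.48 ± 0.44 (SE, adjusted p = 0.0433), KCND1 by 1.35 ± 0.41 (SE, adjusted p = 0.0461) and KCNE3 by 1.21 ± 0.34 (SE, adjusted p = 0.037). These 3 lost the call over 16 libraries, where the differences were 0.87, 0.66 and 0.74. The 18-library call was lost on leaving out any 1 of 6 libraries for KCNH7, 4 for KCNQ3, 13 for KCNK5, 14 for KCNG3, 13 for KCND1 and 9 for KCNE3.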

How the results depend on the processing

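Counts are of the 31 tested members unless said otherwise, and the cause of each shift was not tested. Counts or shares over all genes follow them, except for fits with a single library left out. The guide effect in the empty vector line called 4 members, with 2 at a pseudocount of 0.1, 8 at a pseudocount of 5, 2 among the 17 members with a mean of at least 5 TPM, 10 after median-ratio scaling, 16 over 16 libraries and 17 over 16 libraries with scaling, a combination chosen after seeing the data. Of all 13066 genes it called 2280, with 2007 and 2636 at the 2 pseudocounts. At the mean of at least 5 TPM it called 1589 of 10552 genes. The shares of all genes were 26.4% after scaling, 51.7% over 16 libraries and 55.2% with both. The guide effect in WT called 3, with 1 at the pseudocount of 0.1, 15 at 5, 7 of 79 members without a filter, 1 with the mean of at least 5 TPM, 6 after scaling, 18 over 16 libraries and 11 over 16 with scaling. Of all 13066 genes it called 877, with 224 and 2476 at the 2 pseudocounts. Without a filter it called 1491 of 18470 genes, and at that mean 186 of 10552. The shares of all genes were 12.6% after scaling, 36.1% over 16 libraries and 25.7% with both. That in L191A called 1, with 0, 4, 7 and 15 at the mean of at least 5 TPM, after scaling, over 16 libraries and over 16 with scaling. Of all 13066 genes it called 783, and 475 of 10552 at that mean. The shares of all genes were 9.65% after scaling, 10.7% over 16 libraries and 15.3% with both.

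Of the contrasts under sgPOU2F3, WT minus empty vector called 5, with 8 without a filter, 10 after scaling and 17 over 16 libraries, with or without scaling. Of all genes it called 3010 of 18470 without a filter, 30.5% after scaling, 43.6% over 16 libraries and 50.4% with both. L191A minus empty vector called 2, with 6 without a filter, 9 after scaling, 15 over 16 libraries and 16 with scaling too. Of all genes it called 788 of 18470 without a filter, 8.17% after scaling, 22.9% over 16 libraries and 30.7% with both. L191A minus WT called 3, with 14 after scaling, 18 over 16 libraries and 24 with both, where 22.1%, 37.4% and 44.4% of all genes were called. Under sgRosa, WT minus empty vector called 4, with 8 without a filter, 13 over 16 libraries and 17 with scaling too. Of all genes it called 1333 of 18470 without a filter, 34.3% over 16 libraries and 42.5% with scaling too. L191A minus empty vector called 15, with 9 at the mean of at least 5 TPM, and L191A minus WT called 26, with 14 at that mean and 17 after scaling. At that mean they called 3449 and 5471 of 10552 genes, and scaling gave 50% of all genes for L191A minus WT.

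The interaction of WT and empty vector called 0, with 2 at a pseudocount of 5, 2 without a filter, 3 after scaling, 7 over 16 libraries and 9 with scaling too. Of all genes it called 1137 of 13066 at that pseudocount and 1156 of 18470 without a filter. The shares of all genes were 15.3% after scaling, 26.7% over 16 libraries and 34.2% with both. That of L191A and empty vector called 1, with 0 and 2 at pseudocounts of 0.1 and 5, 3 without a filter, 4 after scaling, 7 over 16 libraries and 12 with scaling too. Of all genes it called 576 and 1061 of 13066 at these pseudocounts and 1003 of 18470 without a filter. The shares of all genes were 12.2% after scaling, 23.3% over 16 libraries and 29% with both. That of L191A and WT called 5, with 1 and 11 at the 2 pseudocounts, 9 without a filter and 1 at the mean of at least 5 TPM. It called 3 after scaling, 3 over 16 libraries and 4 with scaling too. Of all 13066 genes it called 1531, with 701 and 3950 at the 2 pseudocounts. Without a filter it called 1842 of 18470 genes, and at that mean 469 of 10552. The shares of all genes were 13.1% after scaling, 13.2% over 16 libraries and 14.7% with both.

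Leaving out each library of the compared groups gave 2 to 3 members for the guide effect in the empty vector line, 0 to 13 in WT and 1 to 4 in L191A. It gave 5 to 7, 2 to 2 and 3 to 6 for WT minus empty vector, L191A minus empty vector and L191A minus WT under sgPOU2F3, and 2 to 4, 10 to 21 and 19 to 27 for the same contrasts under sgRosa. The interactions gave 0 to 2 for WT and empty vector, 0 to 6 for L191A and empty vector and 0 to 19 for L191A and WT. Replicate 1 of L191A sgRosa, which also widens the pooled spread of contrasts it is not in, moved the guide effect to 11 members in the empty vector line and 23 in WT, and the sgPOU2F3 contrasts to 13, 6 and 11.

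Without replicate 1 of L191A sgRosa and replicate 1 of WT sgPOU2F3 (16 libraries), the sign turned for the L191A guide effect of KCNB2 to -0.74 (-0.77 with scaling) and of KCNH1 to -0.66 (-0.69), and for KCNV1 in L191A minus empty vector under sgRosa to 0.48 (0.66). KCNK7 in L191A minus WT under sgRosa turned to 0.0115 after scaling of 18 libraries.

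With the replicate number as a block, the guide effect in WT called 9 members, and the interactions called 1 for WT and empty vector, 2 for L191A and empty vector and 10 for L191A and WT. In the same order the block called 1440, 878, 871 and 4029 of all 13066 genes. Of 169 results for single genes under the block, 157 stayed on the same side of the threshold and 12 passed it. Same-numbered libraries deviated together in 1 of 15 pairs of groups, the lowest correlation being -0.577, so the numbers are not a pairing. Without the variance trend 168 of 169 stayed.

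The depth of the libraries is unknown, so no limit of detection can be given, and a member near 1 TPM cannot be told from one with few reads. With 3 libraries a group from 1 line each, the spread between derivations is not measured, which limits every contrast between lines.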

Other observations

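Of the 53 members under the filter, KCNN4, KCNH5 and KCNJ2 had a group mean of at least 1 TPM. The group or groups at that level were empty vector sgPOU2F3 for KCNN4, all WT and L191A groups for KCNH5 and both L191A groups for KCNJ2. Choosing genes by a high group favours a difference from the other groups. The p-values below are therefore no independent test of these differences. The values come from the fit without a filter on low values, and the cause of the differences was not tested.

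KCNN4, the intermediate-conductance calcium-activated channel, stood at 1.17, 1.48 and 1.53 TPM in empty vector sgPOU2F3, against 0.491, 0.134 and 0.378 TPM in empty vector sgRosa. The groups did not overlap, and KCNN4 changed by 0.85 ± 0.12 (SE, adjusted p = 0.000245). In WT its change was 0.12 ± 0.12 (SE, adjusted p = 0.498) and in L191A 0.10 ± 0.12 (SE, adjusted p = 0.651), and the effect differed from that in the empty vector line by -0.73 ± 0.17 (SE, adjusted p = 0.0216) in WT and -0.75 ± 0.17 (SE, adjusted p = 0.0237) in L191A.

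KCNH5, an EAG-type voltage-gated channel, averaged 1.25 TPM in L191A sgPOU2F3, 1.35 TPM in L191A sgRosa, 1.17 TPM in WT sgPOU2F3 and 1.53 TPM in WT sgRosa, against 0.0271 TPM in empty vector sgPOU2F3 and 0.0694 TPM in empty vector sgRosa. Both cDNA lines were above the empty vector line. Under sgPOU2F3 the difference was 1.13 ± 0.25 (SE, adjusted p = 0.0144) for L191A and 1.07 ± 0.25 (SE, adjusted p = 0.00856) for WT, and under sgRosa it was 1.03 ± 0.25 (SE, adjusted p = 0.0112) for L191A and 1.23 ± 0.25 (SE, adjusted p = 0.007) for WT. Between L191A and WT it was 0.07 ± 0.25 (SE, adjusted p = 0.941) under sgPOU2F3.

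KCNJ2, an inward rectifier, was higher in L191A sgPOU2F3 than in WT sgPOU2F3 by 0.80 ± 0.21 (SE, adjusted p = 0.0207) and than in empty vector sgPOU2F3 by 0.87 ± 0.21 (SE, adjusted p = 0.0238). It averaged 1.78 TPM in L191A sgPOU2F3, 0.601 TPM in WT sgPOU2F3 and 0.526 TPM in empty vector sgPOU2F3.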
